A study of Mus musculus with 14 samples.

Results

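The BCOR complex and its partners were followed through 10 genes, chosen by name, of 26161 genes with a symbol in RNA count tables of sorted mouse retinal cells. BCOR is a corepressor, a protein that silences genes without reading DNA itself. It sits in a variant Polycomb repressive complex in which PCGF1 binds BCOR, KDM2B reads unmethylated CpG pairs of CpG islands, and the RING finger proteins RING1 and RNF2 attach ubiquitin to histone H2A. RYBP and its paralog YAF2 bind and stimulate the RING subunits, USP7 is a deubiquitinase found with the complex, BCORL1 is the paralog of BCOR, and BCL6 is the zinc finger repressor through which BCOR was first recognised.

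Both groups were wild-type CD1 mice, and plasmid at 1 µg/µl was electroporated into all eyes at birth (P0). The shBCOR group received a short hairpin plasmid against Bcor, and the control group received the empty vector pSilencer-CAG-Venus, so the controls carried no hairpin. Eyes were taken at postnatal day 21, fluorescent cells were sorted, and several sorts were pooled to 30000 to 70000 cells per replicate, giving 2 replicates in each group. Nothing in the labels says how many animals or litters a pool held, and the p-values measure only the spread between these pools. The sources used here give neither the promoter of the hairpin nor its target site in Bcor, and they name 1 hairpin plasmid only.

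The shBCOR libraries held 3173927 and 4093380 counts and the control libraries 4973402 to 5107174. The cells were checked against markers of retinal cell types. Rod genes took 224600 to 249650 CPM (counts scaled to a library of 1000000) in the shBCOR libraries and 212110 to 214120 CPM in the controls, summed over 14 markers, the most abundant list in both groups, while the rod markers Nrl and Gnb1 were listed at 0 in every library. Markers of other retinal cells were lower in summed level in the shBCOR libraries, except those of the pigment epithelium. The 8 pigment epithelium markers had 0 and 18.8 CPM in shBCOR and 8.03 and 2.01 CPM in control libraries. The 13 ganglion and horizontal cell markers had 369.6 to 658.8 CPM in shBCOR and 1919.6 to 1982.1 CPM in control libraries, with Rbpms and Slc17a6 at 0 in all. Most of that sum was the neurofilament genes Nefl, Nefm and Nefh. Of the 9 tested in edgeR, 8 had a negative log2 fold change, with Onecut2 at −0.16, and Lhx1 (1.80) was positive. The 10 amacrine markers had 32.1 to 35.4 CPM in shBCOR and 120.6 to 140.9 CPM in control libraries, with Pax6, Calb2 and Tfap2a at 0. Of the 6 tested in edgeR, 4 had a negative log2 fold change, and Slc6a9 (1.12) and Chat (0.51) were positive. The 11 bipolar markers had 953.1 to 1359.3 CPM in shBCOR and 1758.8 to 1880.3 CPM in control libraries, with Pcp2 among those at 0. For 10 Müller glia markers, none at 0 throughout, the levels were 3364.9 to 4347.8 CPM in shBCOR and 5441.3 to 5612.1 CPM in control libraries. Most of that sum was Glul, with 6979 and 12057 counts in shBCOR and 20781 and 19718 in control libraries. Of the 7 Müller markers tested in edgeR, 4 had a negative log2 fold change. Slc1a3 (0.16), Sox9 (0.32) and Clu (0.05) were positive. The part of these markers in the results below was not tested, and in pooled cells fewer cells of a type and less RNA per cell cannot be told apart. The 10 microglia markers had 4.10 to 6.11 CPM in shBCOR and 19.0 to 23.1 CPM in control libraries, with Aif1, P2ry12, Ptprc and Tyrobp at 0 in all. All 5 red blood cell markers were at 0 in every library. Across genes the log2 CPM values correlated at 0.841 between the shBCOR libraries, at 0.894 between the controls and at 0.846 to 0.858 between groups.

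Because KDM2B reads CpG pairs, the promoters of the 10 genes were described first. A RefSeq table of assembly GRCm38.p6 held 12 promoters of 7 of them, each from 250 bases before to 50 after a transcript start. Pcgf1, Rybp and Yaf2 had no entry in it. Some of these windows are printed for the range of CpG content they span, with every CpG in capitals. Usp7 is the CpG-richest of the 12, Bcor is the targeted gene, and the second Bcl6 start is the CpG-poorest.

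Usp7 (chr16:8738293-8738592, minus strand): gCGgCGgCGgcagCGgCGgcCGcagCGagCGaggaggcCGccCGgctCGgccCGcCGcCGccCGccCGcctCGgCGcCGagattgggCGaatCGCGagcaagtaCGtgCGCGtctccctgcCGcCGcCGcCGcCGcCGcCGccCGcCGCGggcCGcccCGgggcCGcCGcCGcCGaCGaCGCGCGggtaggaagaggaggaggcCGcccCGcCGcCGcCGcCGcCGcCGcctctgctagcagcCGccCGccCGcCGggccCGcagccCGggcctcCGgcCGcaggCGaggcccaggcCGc
Bcor (chrX:12160297-12160596, minus strand): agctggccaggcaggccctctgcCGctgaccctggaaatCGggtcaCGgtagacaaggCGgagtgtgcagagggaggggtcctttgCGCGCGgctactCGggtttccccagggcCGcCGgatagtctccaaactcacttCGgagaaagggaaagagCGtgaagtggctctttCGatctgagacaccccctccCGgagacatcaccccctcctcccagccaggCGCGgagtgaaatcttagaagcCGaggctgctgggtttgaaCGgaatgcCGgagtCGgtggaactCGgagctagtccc
Bcl6 (chr16:23981234-23981533, minus strand): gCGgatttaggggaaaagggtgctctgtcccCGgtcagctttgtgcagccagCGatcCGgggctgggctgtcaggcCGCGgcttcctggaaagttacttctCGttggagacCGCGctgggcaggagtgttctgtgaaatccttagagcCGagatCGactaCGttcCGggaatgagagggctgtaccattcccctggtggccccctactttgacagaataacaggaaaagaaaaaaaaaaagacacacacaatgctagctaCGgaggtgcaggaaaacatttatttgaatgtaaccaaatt

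Usp7 held 63 CpG pairs in 300 bases, Bcor 21 and this Bcl6 window 14, while the other Bcl6 window held 31. Over all 32851 promoters of that length the median was 7 and the upper quartile 20. All 12 member windows lay above the median and 10 of them above the upper quartile, with 37 CpG pairs at Ring1, 30 at Rnf2, 21 at Bcorl1 and 18 to 49 at the Kdm2b starts. These windows are not all separate promoters. The Bcor windows from 12160297 and 12160306 share most of their bases, as do the Kdm2b windows from 122900301 and 122900318. The letters TAATCC, the core that OTX2 and CRX bind, were searched on both strands. They were in 1 of the 12 windows, at Kdm2b, and in 7.06% of all promoters. A match is a description of the letters and not of binding.

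The 10 genes had 24 RefSeq records in the count tables, and 9 of these records held a count in some library. The 5 genes with 1 record, Bcorl1, Pcgf1, Ring1, Rybp and Usp7, all had counts. The 5 genes with several records, Bcor, Kdm2b, Rnf2, Yaf2 and Bcl6, had 19 records, of which 4 held counts. Over the whole table the share of records with counts fell with their number. Of the records of genes with 1 record 46.4% held counts, of those with 2 records 22.0%, with 4 records 12.2%, with 5 records 9.72% and with 6 records 9.29%. Such a share falls by itself where 1 record of a gene takes the counts. By gene, 46.4% of those with 1 record and 36.2% of those with 2 or more had counts. The median of genes with counts was 296 and 28 counts. A value of 0 for a gene with several records was not read as its absence. Rod cells make Nrl, the transcription factor that defines them, and its 4 records were also at 0.

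**Figure D1:**
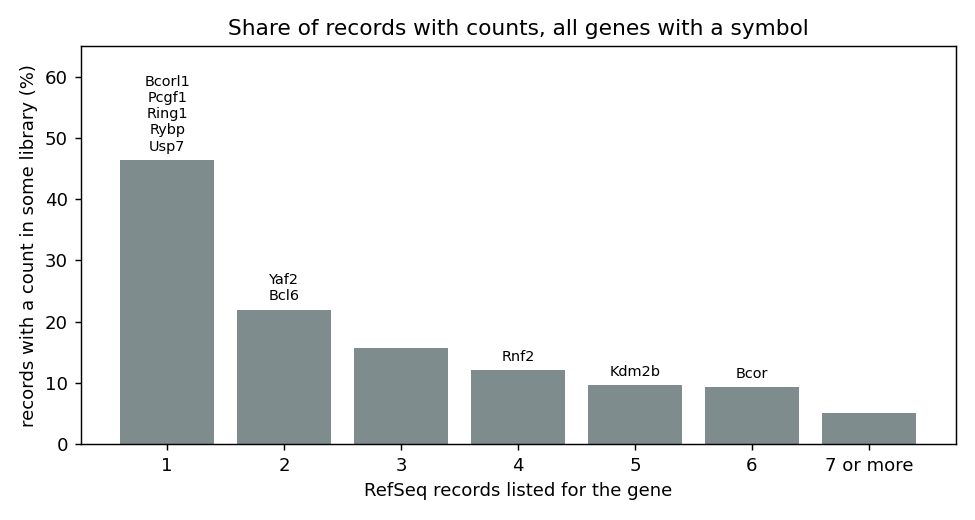
Share of RefSeq records with a count in some library (vertical axis, percent) against the number of records listed for a gene (horizontal axis), over all genes with a symbol, with the 10 genes named above their class. The share was 46.4% for genes with 1 record and 9.29% for genes with 6, the class of Bcor. Such a share falls by itself where 1 record of a gene takes the counts. By gene, 40.4% of those with 6 records had counts.

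Bcor, the targeted gene, came first. Its records NM_001168321, NM_029510, NM_175044, NM_175045 and NM_175046 were at 0 in every library, and NR_045434, a non-coding record, held 0 and 13 counts in the shBCOR libraries, against 20 and 8 in the controls. Replicate 2 of shBCOR lay between the controls and replicate 1 below them, so the groups overlapped. The count of 0 allows up to 3 counts. Exact Poisson 95% intervals of the other libraries, which like that limit cover counting error only, ran from 6.92 to 22.2 counts in shBCOR replicate 2, and from 12.2 to 30.9 and from 3.45 to 15.8 in the controls. Counts of this size were unstable between replicates of the same group throughout the table. Of records with 8 to 20 counts in shBCOR replicate 2, 49.5% (781 of 1579) were at 0 in shBCOR replicate 1, and of those with as many in control replicate 1, 40.1% (668 of 1664) were at 0 in control replicate 2. Among records with at least 50 counts in shBCOR replicate 1 the share at 0 in replicate 2 was 0.287%.

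With TMM scaling, which corrects library size for composition, Bcor stood at 0 and 3.30 CPM in shBCOR and at 3.69 and 1.51 CPM in control libraries. The log2 fold change summed over records was −0.63 ± 2.40 (SE, 2 libraries a group), with a 95% interval from −6.21 to 4.96 and an adjusted p of 0.991 in edgeR's quasi-likelihood test. The interval ran from 0.0135-fold to 31.0-fold, so a knockdown of Bcor was not detectable in these counts, and the label of the shBCOR libraries was not checked by its target. The sources used here do not say whether the hairpin acts on the transcript of NR_045434. The log2 fold change turned to 0.34 without shBCOR replicate 1 and to 0.13 without control replicate 1. It was −6.58 without shBCOR replicate 2, which leaves the library at 0 counts, and −1.14 without control replicate 2.

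Bcorl1, the paralog of Bcor, was measured better. Its record NM_178782 had 22 and 84 counts in the shBCOR libraries and 114 and 124 in the controls. In TMM-scaled CPM these were 7.51 and 21.3 in shBCOR and 21.1 and 23.5 in control libraries. Replicate 1 of shBCOR was low and replicate 2 lay within the range of the controls. The log2 fold change was −0.61 ± 0.62 (SE, 2 libraries a group; edgeR adjusted p = 0.877), with a 95% interval from −2.05 to 0.83. It was −0.06 without shBCOR replicate 1 and −1.57 without shBCOR replicate 2 (adjusted p = 0.980 and 0.227), so the size rested on 1 library.

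Pcgf1, the PCGF subunit to which BCOR binds, had the lowest shBCOR levels relative to control among the members with counts in every library. NM_197992 had 9 and 20 counts in the shBCOR libraries and 58 and 83 in the controls, or 3.07 and 5.08 against 10.7 and 15.7 TMM-scaled CPM. The groups did not overlap, shBCOR being lower, as in 23.3% of all 7775 genes tested and in 25.1% of those with at most 200 counts in all. The log2 fold change was −1.68 ± 0.90 (SE, 2 libraries a group; edgeR adjusted p = 0.617), and its 95% interval from −3.76 to 0.40 held 0. Left-out libraries gave −2.10 to −1.37, none past the threshold. Kdm2b, the CpG reader of the complex, held counts in NM_001003953 alone, 0 and 16 in shBCOR and 0 and 8 in control libraries, and its records NM_001378863, NM_001378864, NM_001378865 and NM_013910 were at 0. Each group had 1 library at 0, so no difference could be read, and Kdm2b did not pass the filter on low counts.

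The 2 RING finger ligases could not be compared with each other. All 4 Rnf2 records (NM_001360844, NM_001360845, NM_001360847 and NM_011277) were at 0, which with the same limit of 3 counts allows up to 0.945 and 0.733 CPM in the shBCOR libraries and 0.587 and 0.603 CPM in the controls for reads counted to these records. Ring1 (NM_009066) had 101 and 237 counts in shBCOR and 174 and 268 in control libraries. In TMM-scaled CPM it had 34.5 and 60.2 in shBCOR and 32.1 and 50.7 in control libraries, and the groups overlapped. The spread within each group exceeded the difference between them. The log2 fold change was 0.20 ± 0.41 (SE, 2 libraries a group; edgeR adjusted p = 0.974), and the 95% interval from −0.76 to 1.16 leaves room for a change of 2-fold in the upward direction. The value was −0.27 without shBCOR replicate 2 and −0.10 without control replicate 1.

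Rybp, which binds the RING subunits in variant complexes, stood higher in the shBCOR libraries. NM_019743 had 112 and 184 counts in shBCOR and 121 and 112 in control libraries, from shallower shBCOR libraries. In TMM-scaled CPM it had 38.2 and 46.7 in shBCOR and 22.3 and 21.2 in control libraries. The groups did not overlap, shBCOR being higher, as in 18.6% of all genes tested. The log2 fold change was 0.97 ± 0.38 (SE, 2 libraries a group), a 1.96-fold difference with a 95% interval from 1.05-fold to 3.63-fold. The unadjusted p was 0.0370 and the adjusted p 0.493 in edgeR, so Rybp did not pass. It had the smallest adjusted p of the 10 genes, and in DESeq2 its adjusted p was 0.0808. All 10 alternatives run kept it higher, at 0.79 to 1.10. Its paralog Yaf2 held counts in the non-coding record NR_028315 alone, 4 and 0 in shBCOR and 0 and 15 in control libraries, with NM_024189 at 0, and was not tested.

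Usp7, the deubiquitinase, held most of the members' counts, 73.2 to 80.9% in the shBCOR libraries and 76.1 to 80.2% in the controls. Its single record NM_001003918 had 1051 and 1513 counts in shBCOR and 2023 and 2033 in control libraries. In TMM-scaled CPM these were 358.7 and 384.4 in shBCOR and 373.6 and 384.6 in control libraries, and the groups overlapped. The log2 fold change was −0.03 ± 0.13 (SE, 2 libraries a group; edgeR adjusted p = 0.995). The 95% interval ran from 0.792-fold to 1.22-fold, the narrowest of the tested members. Transcript lengths were not used here, so these counts do not rank the genes by transcript number.

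Bcl6, the zinc finger repressor, had counts in the controls and none in the shBCOR libraries. NM_001348026 had 0 and 0 counts in shBCOR and 13 and 20 in control libraries, while NM_009744 was at 0 throughout. At the control share the shBCOR libraries would have held 23.8 counts together. The control level of Bcl6 in CPM of the library totals was 7.93-fold that of a floor of 3 counts over the shBCOR group. That floor covers counting error of the 0 only. In edgeR the adjusted p was 0.597 and did not pass. The interval of the log2 fold change in that fit, from −14.83 to 1.28, held 0. Among records with 8 to 20 counts in control replicates 1 and 2, 40.1% and 42.4% were at 0 in the other control library. Of 11249 genes or unnamed records with counts, 211 had at least 10 in both controls and 0 in both shBCOR libraries, and 21 had the opposite pattern. The control libraries were deeper, with 9525 and 9714 records above 0 against 8128 and 8612 in shBCOR. The part of depth in that asymmetry was not tested. Bcl6 has 2 records, so the level of the gene is uncertain.

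**Figure D2:**
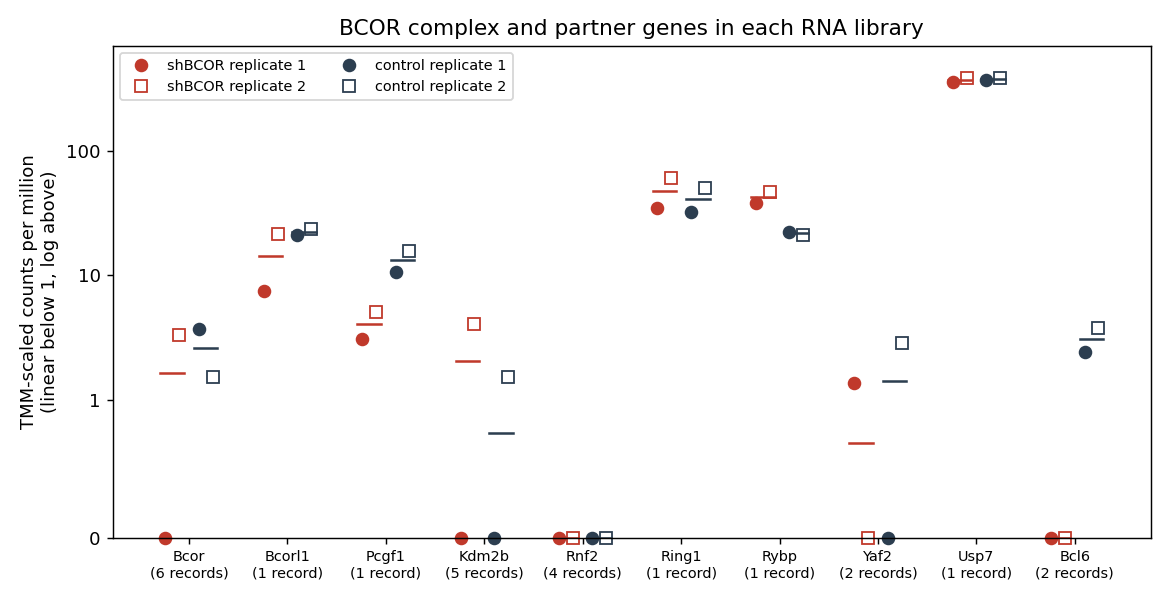
TMM-scaled CPM of the 10 genes (vertical axis, linear below 1 and logarithmic above), with shBCOR left of control, circles for replicate 1, squares for replicate 2 and bars for the mean of 2. Rybp at 38.2 and 46.7 in shBCOR lies above 22.3 and 21.2 in control, Pcgf1 and Bcl6 lie below their controls, and the other genes overlap.

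Of the 10 genes, 7 passed the filter on low counts and 3 (Kdm2b, Rnf2 and Yaf2) did not. In edgeR 0 of the 7 passed an adjusted p under 0.05, where 0.0884% of all records and 0.09% of all genes tested passed, with members taken as records or summed. Summed, 1 had an unadjusted p under 0.05, where 9.3% of all genes did. DESeq2 called 0 of the 6 to which it gave an adjusted p, Bcl6 having none, where it called 6.42% of all genes. It gave 2 of the 7 an unadjusted p under 0.05, where 16.5% of all genes had one. The groups did not overlap for 3 of the 7, with shBCOR lower in 2 (23.3% of all genes) and higher in 1 (18.6%). With scaling by library total alone, which moved the median of all genes by −0.18 on the log2 scale, those were 4 and 1, against 31.3 and 11% of all genes. The 4 included Usp7 and Bcorl1, so their place relative to the controls depended on that scaling. Bcl6, counted as lower under both scalings, passed the filter through its control counts alone. It could only come out lower, and its side carries no weight in these tallies. Summing records changed no fold by much, since each tested gene had a single record with counts.

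**Figure D3:**
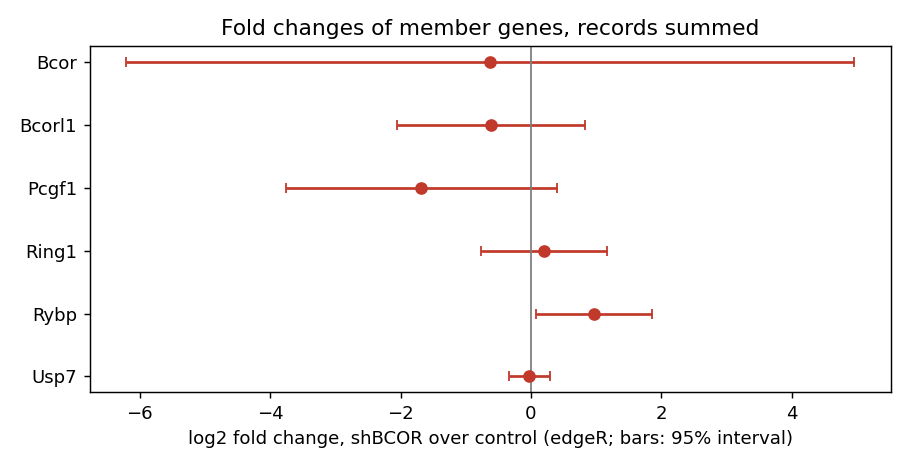
Log2 fold change of shBCOR over control from edgeR (horizontal axis) for the 6 tested genes with counts in both groups, with 95% intervals from 2 libraries per group as bars. The Usp7 interval runs from −0.34 to 0.28 and the Bcor interval from −6.21 to 4.96, and only the Rybp interval, from 0.08 to 1.86 before adjustment, leaves out 0.

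The wider Polycomb and corepressor machinery was read in the same fit through lists chosen by function. Of 70 listed genes in the table, 43 were tested, 30 of 33 with a single record and 13 of 37 with several. In edgeR 0 of the 43 passed and 2, Cbx6 and Max, had an unadjusted p under 0.05, against 9.3% of all genes. DESeq2 called 1 of the 43, Cbx6, against 6.42% of all genes. The median log2 fold change of the 43 was 0.03, against −0.01 over all genes tested, and 21 of them were negative, where 50.9% of all genes were. Max is among the 43 but passed the filter through its shBCOR counts alone. It could only come out higher and carries no weight in these tallies.

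Other subunits of the canonical and variant complexes gave 7 tested genes of 15, with a median of 0.05, and 0 passed in edgeR. Cbx6, a chromodomain subunit that reads methylated histone H3, had 349 and 457 counts in shBCOR and 959 and 895 in control libraries, a log2 fold change of −0.56 ± 0.19 (SE, 2 libraries a group; edgeR adjusted p = 0.398, DESeq2 adjusted p = 0.0236). Bmi1, a PCGF subunit of canonical complexes, had 0.28 (edgeR adjusted p = 0.750). Other PCGF subunits could not be read: Pcgf2, Pcgf5 and Pcgf6 were at 0 in every library, and Pcgf3 had 16 counts in 1 control alone.

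Partners of other variant complexes gave 12 tested genes of 16, with a median of 0.01 and 0 passing in edgeR. Max, the dimer partner of MYC and MGA, had 15 and 14 counts in shBCOR and 0 and 0 in control libraries (edgeR adjusted p = 0.536). Its shBCOR level was 13.4-fold that of a floor of 3 counts over the control group, which covers counting error of the 0 only. Max passed the filter through its shBCOR counts alone, so it could only come out higher. Of records with 8 to 20 counts in shBCOR replicates 1 and 2, 36.3% and 49.5% were at 0 in the other shBCOR library. Max has 4 records, and its level is uncertain. Auts2, a partner of the complexes of PCGF3 and PCGF5, had −0.72 (adjusted p = 0.562) and the kinase subunit Csnk2a1 0.51 (0.667). Skp1, which was found with BCOR complexes, had −0.03 (0.995).

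The PRC2 complex, which methylates histone H3, gave 7 tested genes of 12, with a median of −0.03, and 0 passed in edgeR. Its catalytic subunit Ezh1 had 448 and 457 counts in shBCOR and 612 and 682 in control libraries (log2 fold change 0.15, edgeR adjusted p = 0.943), while Ezh2, with 2 records, was at 0. Eed, the subunit that binds methylated H3, had 303 and 307 counts in shBCOR and 484 and 462 in control libraries (0.04, adjusted p = 0.995). Aebp2, an accessory subunit, had −0.29 (0.995). Genes that remove ubiquitin from H2A gave 6 tested of 8, with a median of 0.10 and 0 passing in edgeR, among them Usp16 at 0.64 (adjusted p = 0.587), Asxl3 at −2.26 (0.794) and Mysm1 at 0.25 (0.830).

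Corepressors that work with BCL6 or BCOR gave 10 tested genes of 17, with a median of 0.17, and 0 passed in edgeR. Ncor1, a corepressor that binds BCL6, had 75 and 45 counts in shBCOR and 58 and 43 in control libraries (log2 fold change 0.97, edgeR adjusted p = 0.747). The histone deacetylases Hdac9 and Hdac3 had 0.34 (0.750) and −0.41 (0.823). The homeobox factors Crx and Otx2 were thinly counted. Crx had 17 and 35 counts in shBCOR and 77 and 27 in control libraries (−0.39, adjusted p = 0.980), and Otx2, with 6 records, had 0 and 22 in shBCOR and 0 and 7 in control libraries and was not tested.

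**Figure D4:**
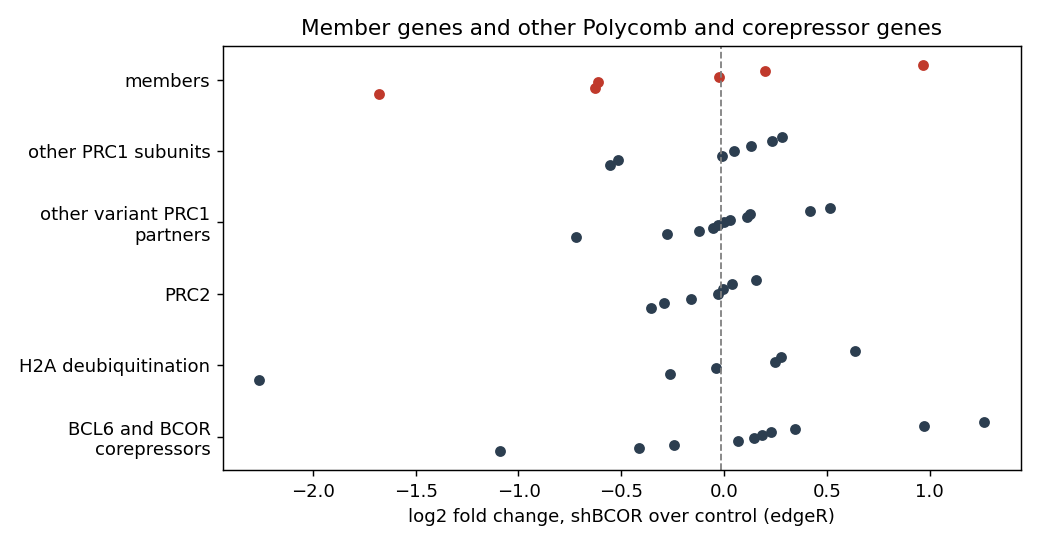
Log2 fold change of shBCOR over control from edgeR (horizontal axis) for tested genes of each list (rows), with the 6 tested member genes with counts in both groups in the top row and the median of all genes tested, −0.01, as a dashed line. Bcl6 and Max, which had 0 counts in 1 group, are not drawn. Member genes run from −1.68 for Pcgf1 to 0.97 for Rybp.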

How the data were processed

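RNA of 4 samples was used, 2 shBCOR and 2 control, grouped by their titles. The authors deposited unnormalised counts for each RefSeq record, which the labels credit to HTSeq. The submitters' processing notes list the builds mm10 and mm9 and the tools TopHat, Trimmomatic and DESeq2, with no version or role. The sources used here state neither the strand setting nor the treatment of a read lying in several records of a gene, so overlapping and antisense genes were not told apart. Of 45895 records, 45749 (99.7%) were matched to a symbol through RefSeq of GRCm38.p6, and counts were tested per record and summed per gene. The 10 peak lists were not used here, since they are on another build than that table.

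The test was that of edgeR 4.0.16 under R 4.3.3 (TMM scaling, filterByExpr by group, robust quasi-likelihood F test), with Benjamini-Hochberg adjustment over all 7921 records or 7775 genes and a threshold of 0.05. The 95% intervals are those of the fit before adjustment. The script was tested on simulated counts with less spread between replicates than these data. That run checked the code and not its power to detect changes at low counts. Alternatives were DESeq2 1.42.0 with a local dispersion fit, other scalings, other filters, each library left out and a replicate block. A floor of 3 counts stood for a count of 0, and intervals and floors cover counting error only. Named genes were all 10 genes, and of each other list those that passed or at most 3 with the smallest p. Some genes of the lists are not reported here by name. Further genes were named after their values were seen: Skp1, Crx, Otx2, Ezh2, Nrl and the PCGF genes. The members, lists and rules were chosen with earlier results of these data known. The comparison of low counts between replicates and the sides under plain library totals were added after the data were seen.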

Additional observations from a re-analysis of the deposited data

How the results depend on the processing

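No alternative brought a record or summed gene of the 10 genes past the threshold. The numbers of all records and genes called did depend on the setting. Of records and genes 7 each passed in edgeR, against 26 and 29 with scaling by library total, 197 and 205 without a filter, and 476 and 480 with DESeq2. With the replicate block 45 records and 23 genes passed. Replicate deviations of shBCOR and control correlated at −0.01 across genes. With 1 difference per group, that value cannot decide whether samples of the same number shared a litter, sort or batch. The shBCOR replicate 2 table carries another number than its title. Leaving out 1 library gave 5 to 534 records and 4 to 525 genes, the lone library then being assumed to vary like the other group. The cause was not tested. Directions turned for 3 of the 7 tested genes. With 1 library left out, Bcor ran from −6.58 (shBCOR replicate 1 alone, at 0 counts) to 0.34, summed and as a record, and was 0.13 without control replicate 1. Usp7 ran from −0.087 to 0.023 summed and from −0.090 to 0.020 as a record, positive only without shBCOR replicate 1. Ring1 ran from −0.27 to 0.56, summed and as a record, and was negative without shBCOR replicate 2 and, at −0.10, without control replicate 1. Rybp (0.79 to 1.10), Pcgf1 (−2.10 to −1.37) and Bcorl1 (−1.57 to −0.06) kept their direction in 10 of 10 settings, and Bcl6 in 9, since it did not pass the filter without control replicate 2. Control levels in CPM moved by more than the spread of the controls for Rybp (21.7 against 23.1) and Usp7 (378.6 against 402.4) with TMM scaling. Low counts limit the reading of Bcor, Kdm2b, Yaf2 and Bcl6, all under 40 counts in each group. Each has several records, and among genes with any count the median over the 4 libraries together was 28 counts for those with several records and 296 for those with 1. Depth and the counting per record were not told apart.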
